A study of Mus musculus with 6 samples.

Results

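Foxp3 and 9 genes that mark or serve regulatory T cells were followed in cultured mouse T helper 9 (Th9) cells, the CD4 T helper cells that make IL-9. The 10 genes, Foxp3, Ikzf2, Ikzf4, Lrrc32, Izumo1r, Gpr83, Nrp1, Ebi3, Capg and Swap70, were chosen by symbol from the 23183 genes with a count row, and all 10 were found and passed the filter on low counts. Cells of the 3 SPC libraries were grown with 30 µM sphingosylphosphorylcholine (SPC, d18:1), a lysosphingolipid, and cells of the 3 control libraries without it. Spleens of wild-type C57BL/6N mice gave the naive CD4 T cells of all 6 cultures. Every culture was stimulated through plate-bound anti-CD3e and through anti-CD28, at 1 µg/ml each, in the presence of 10 µg/ml anti-IFN-gamma. The cytokines added to both groups were TGF-beta1 at 2 ng/ml and IL-4 at 10 ng/ml, and RNA was taken on day 3. According to the series text there were 3 independent experiments, and library titles in each group carry numbers from 1 to 3.

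FOXP3 is the transcription factor that sets and keeps the regulatory T cell state, in which CD4 T cells restrain other immune cells. Naive CD4 T cells can switch Foxp3 on outside the thymus when they meet antigen together with TGF-beta and IL-2, and IL-4 is known to oppose this step. Th9 cultures hold TGF-beta and IL-4 at once, so Foxp3 and Il9 are alternative outcomes of overlapping signals.

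Total counts lay between 22715292 and 33049997 in SPC libraries and between 22002050 and 30292992 in control libraries. The summed level of 6 CD4 T cell markers (Cd3d, Cd3e, Cd3g, Cd4, Cd5 and Cd28) was 1062 to 1166 CPM, counts scaled to library size, in SPC libraries and 1014 to 1068 CPM in control libraries. CPM are TMM-scaled throughout, TMM being the trimmed-mean scaling of edgeR. The 5 B cell markers summed to 3.68 to 4.77 CPM in SPC and 3.35 to 3.59 CPM in control libraries, with Ms4a1 at 0 in every library. The 6 dendritic cell markers summed to 4.16 to 6.34 CPM in SPC and 2.63 to 3.68 CPM in control libraries, most of it from Zbtb46, while Clec9a was at 0 and Itgax at no more than 2 counts in any library. The 4 NK cell markers summed to 1.34 to 1.69 CPM in SPC and 2.05 to 2.62 CPM in control libraries, with Ncr1 at 0. The 2 CD8 T cell markers summed to 1.88 to 2.43 CPM in SPC and 1.73 to 2.00 CPM in control libraries. The 5 macrophage or monocyte markers summed to 1.72 to 2.30 CPM in SPC and 1.95 to 2.27 CPM in control libraries. Among them Adgre1 had 6, 4 and 5 counts in SPC and 12, 21 and 18 counts in control libraries. Adgre1 fell in edgeR's test with the replicate number as a block (log2 fold change -1.73 ± 0.42, adjusted p = 0.0315). Cd68, the other tested marker of these, had 58, 40 and 48 counts in SPC and 43, 33 and 32 in control libraries. In CPM Cd68 was higher in every SPC library than in any control library. Its log2 fold change was 0.42 ± 0.24 (edgeR adjusted p = 0.628 without and 0.297 with the block). Zbtb46 and Cd5 rose in edgeR's test with the block (0.63 ± 0.16 and 0.36 ± 0.05, adjusted p = 0.0427 and 0.00157). Without the block their adjusted p was 0.331 and 0.0597. The sums of B cell and dendritic cell markers were thus higher, and that of NK cell markers lower, in every SPC library than in any control library.

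Ebi3 and Foxp3 showed the largest differences among the 10 genes, with mean levels 1.95-fold and 1.61-fold higher in SPC than in control libraries. Ikzf2, Nrp1, Swap70 and Capg were higher by 1.33-fold, 1.30-fold, 1.25-fold and 1.24-fold. Gpr83, Izumo1r, Ikzf4 and Lrrc32 lay between 1.11-fold and 0.925-fold. None of the 10 passed an adjusted p under 0.05 in edgeR's quasi-likelihood test with group as the single term, in which 0.483% of the 12226 tested genes did (0.327% higher with SPC). An unadjusted p under 0.05 was reached by 6 of the 10, against 10.2% of all tested genes. DESeq2 called 3 of the 10, Ebi3, Foxp3 and Nrp1, and 279 of the 16801 genes with any count. The same-numbered libraries deviated together, and with the number as a block Ebi3, Foxp3, Nrp1, Ikzf2, Capg and Swap70 rose, 6 of the 10 genes, where 4.02% of all tested genes rose and 7.08% changed. None of the 10 fell in that fit. The log2 fold change was above 0 in 9 of the 10 genes and in 50.5% of all tested genes, with a median of 0.31 over the 10 and 0.0019 over all tested genes. The 10 genes were chosen with earlier results of these data known, so counts set beside shares of all tested genes are descriptions and no test of the set. The group-only count over all genes, 59, rests on single libraries: leaving out SPC library 2 or control library 2 gave 6, leaving out SPC library 3 gave 35, and leaving out control library 1 or 3 gave 38 or 28.

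**Figure D1:**
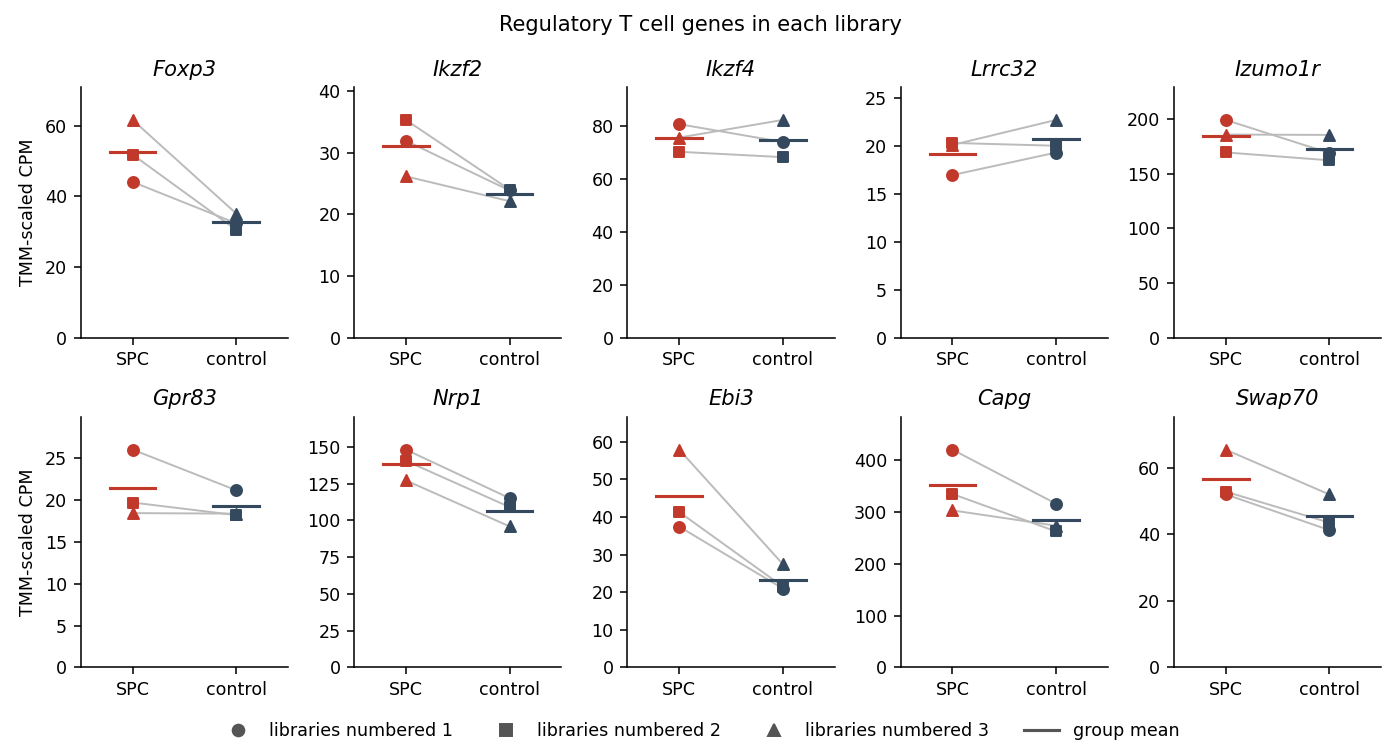
TMM-scaled CPM (vertical axis, from 0) of each of the 10 genes in 3 SPC libraries (red, left) and 3 control libraries (blue-grey, right). Grey lines join same-numbered libraries and bars are group means. In Foxp3, Ikzf2, Nrp1, Ebi3 and Swap70 every SPC library lay above every control library.

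In 5 of the 10 genes, Foxp3, Ikzf2, Nrp1, Ebi3 and Swap70, the lowest SPC library exceeded the highest control library. In Swap70 the gap was narrow, 51.94 against 51.91 CPM. Such a gap held for 8.67% of all tested genes. In none of the 10 did every SPC library lie below the control libraries, which held for 7.8% of all tested genes. SPC exceeded control in all 3 same-numbered pairs for 8 of the 10 genes, against 21.8% of all tested genes. Ikzf4 was higher in 2 pairs and Lrrc32 in 1. As the RNA comes from whole cultures, more Foxp3-expressing cells and more RNA per cell cannot be told apart, here and in each result that follows.

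Foxp3 lies on chromosome X (7573644 to 7595245, plus strand, mm10). It stood at 44.1, 51.8 and 61.6 CPM in SPC libraries 1 to 3 and at 32.4, 30.5 and 35.1 CPM in control libraries 1 to 3. The groups did not overlap, and the SPC libraries spread more widely than the control libraries. The log2 fold change was 0.68 ± 0.12 (SE, adjusted p = 0.0577 in edgeR), and 0.67 ± 0.08 with the block (adjusted p = 0.00087). The 3 same-numbered pairs gave log2 ratios of 0.44, 0.76 and 0.81. Without SPC library 1 Foxp3 passed the group-only test as well (log2 fold change 0.80, adjusted p = 0.0360). In the blocked fit it passed without any of the 3 numbers. Of the exonic bases of Foxp3, 18.7% lie in exons of genes on the opposite strand, Ccdc22 and Ppp1r3f among them, and 18.6% in the same-strand noncoding gene Flicr. Ccdc22, a gene of endosomal sorting, had 32.5 ± 3.80 CPM in SPC and 28.6 ± 1.27 CPM in control libraries (SD, n = 3 each), a log2 fold change of 0.19 ± 0.10 (edgeR adjusted p = 0.601, and 0.231 with the block). Ppp1r3f, a regulatory subunit gene of protein phosphatase 1, had 5.14 ± 0.28 CPM in SPC and 4.03 ± 0.73 CPM in control libraries (SD, n = 3 each), a log2 fold change of 0.36 ± 0.17 (edgeR adjusted p = 0.537, and 0.178 with the block). In both genes every SPC library lay above every control library, which held for 8.67% of all tested genes. In Ccdc22 the gap was narrow, 30.07 CPM in SPC library 3 against 30.05 CPM in control library 3.

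Ebi3 (chromosome 17, 55952640 to 55957022, plus strand) encodes the chain shared by the cytokines IL-27 and IL-35, and IL-35 is a product of regulatory T cells in mice. It stood at 37.5, 41.4 and 57.9 CPM in SPC libraries and at 21.002, 21.5 and 27.5 CPM in control libraries. Each SPC library lay above all control libraries, and library 3 was the highest of its group in both. The log2 fold change was 0.97 ± 0.17 (adjusted p = 0.0557 in edgeR), and 0.95 ± 0.07 with the block (adjusted p = 4.0e-05), where Ebi3 ranked 23 of 12226 genes by p. The pairs gave 0.83, 0.94 and 1.07. Gm16712, a predicted gene on the opposite strand, covers 23.4% of the exonic bases of Ebi3. Gm16712, looked up because of that overlap, had 13.9, 13.1 and 16.4 CPM in SPC libraries and 5.78, 5.90 and 6.82 CPM in control libraries, and rose (log2 fold change 1.23 ± 0.13, edgeR adjusted p = 0.0138). The strand setting of the counting is not given in the sources used here, and without strand the reads of such a pair cannot be told apart. The dendritic cell marker sum was also higher in every SPC library than in any control library, and its part in the Ebi3 result was not tested.

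The 250 bases before the annotated start of Foxp3, Ebi3, Swap70 and Izumo1r are shown because the first pair of genes differed most, Swap70 differed less and Izumo1r passed no test. They are RefSeq sequences of build GRCm38.p6, the assembly that mm10 names, written 5′ to 3′ on the strand of the gene. Of the 10 genes 7 had an entry, and the first of the 2 listed starts of Foxp3 is shown. Capitals mark matches on either strand to TATAAA (the box bound by the TBP protein), GGAAA (the core of NFAT sites), TGANTCA (bound by AP-1 factors), TGTTTAC (bound by forkhead factors), CCGGAA (bound by factors of the ETS family) and AGATAA (bound by zinc finger factors such as GATA3).
Foxp3, chrX:7579426-7579675, plus strand: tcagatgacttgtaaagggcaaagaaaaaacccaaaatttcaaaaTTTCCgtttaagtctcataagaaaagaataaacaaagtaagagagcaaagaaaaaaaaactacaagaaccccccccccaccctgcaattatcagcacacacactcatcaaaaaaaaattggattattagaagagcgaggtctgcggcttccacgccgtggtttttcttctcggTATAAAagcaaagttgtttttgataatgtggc
Ebi3, chr17:55952373-55952622, plus strand: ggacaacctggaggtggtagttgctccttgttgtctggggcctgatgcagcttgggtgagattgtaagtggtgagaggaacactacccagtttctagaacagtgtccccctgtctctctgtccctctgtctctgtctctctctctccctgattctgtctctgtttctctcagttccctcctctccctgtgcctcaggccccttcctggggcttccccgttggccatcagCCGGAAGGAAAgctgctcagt
Swap70, chr7:110221453-110221702, plus strand: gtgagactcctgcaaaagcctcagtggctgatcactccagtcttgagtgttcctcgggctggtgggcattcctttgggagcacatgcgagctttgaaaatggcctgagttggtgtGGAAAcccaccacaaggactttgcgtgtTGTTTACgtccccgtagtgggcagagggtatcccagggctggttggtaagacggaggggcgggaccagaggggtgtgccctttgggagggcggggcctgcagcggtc
Izumo1r, chr9:14903768-14904017, minus strand: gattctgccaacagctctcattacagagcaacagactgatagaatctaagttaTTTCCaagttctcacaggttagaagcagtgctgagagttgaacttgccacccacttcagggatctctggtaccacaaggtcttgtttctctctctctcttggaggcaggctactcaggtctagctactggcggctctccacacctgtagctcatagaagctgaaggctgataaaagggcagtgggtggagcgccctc
Foxp3 held a TATAAA from 32 to 27 bases before its start, as did 12.4% of the 32851 listed windows of that length somewhere in the window. Ebi3 held CCGGAA directly followed by GGAAA within 21 bases of its start, and CCGGAA occurred in 12.0% of windows. Swap70 held a TGTTTAC, which 3.17% of windows did. GGAAA on either strand occurred in all 4 sequences and in 55.6% of windows. TGANTCA, found in 6.75% of windows, occurred in none of the 4 sequences. AGATAA, found in 9.99% of windows, occurred in none of the 4 either. The window before the second listed start of Foxp3, not shown, held an AGATAA from 47 to 42 bases before that start and no TATAAA. G and C made up 37.6% of the Foxp3 window shown and 46.0% of that before its second start, against 56.0% for Ebi3, 59.6% for Swap70 and 50.0% for Izumo1r. Such matches describe the letters of these windows and do not show binding.

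Ikzf2 and Ikzf4 encode Helios and Eos, zinc finger factors of the Ikaros family. Helios is abundant in regulatory T cells that arise in the thymus, and Eos acts as a partner of FOXP3 in gene repression in mice. Ikzf2 (chromosome 1, 69531214 to 69687245, minus strand) had 31.9, 35.3 and 26.2 CPM in SPC and 23.9, 24.02 and 22.1 CPM in control libraries. The groups did not overlap, and the lowest SPC library, number 3, lay closest to its control. Its log2 fold change was 0.42 ± 0.11 (adjusted p = 0.201 in edgeR), and 0.41 ± 0.08 with the block (adjusted p = 0.0103), a call that was lost without the libraries numbered 2 (0.0552). Ikzf4 (chromosome 10, 128630843 to 128645991, minus strand) had 80.8, 70.3 and 75.7 CPM in SPC and 74.0, 68.3 and 82.4 CPM in control libraries. The Ikzf4 groups overlapped, and the log2 fold change was 0.01 with a 95% interval from -0.19 to 0.22 (adjusted p = 0.978).

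The other 3 Ikaros family genes were tested too, and none passed either test. Ikzf3, which encodes Aiolos, had 13.3 ± 0.88 CPM in SPC and 16.4 ± 0.09 CPM in control libraries (SD, n = 3 each), with no overlap (log2 fold change -0.30 ± 0.09, edgeR adjusted p = 0.261, and 0.0608 with the block). Ikzf1, which encodes Ikaros itself, had -0.03 ± 0.07, and Ikzf5 -0.01 ± 0.14. Ikzf2 was thus the 1 of 5 family members that passed the blocked test, which 7.08% of all tested genes did.

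Nrp1 (chromosome 8, 128358604 to 128503363, plus strand) encodes neuropilin 1, a co-receptor for semaphorins and VEGF that marks thymus-derived regulatory T cells in mice. It had 148, 140.5 and 127 CPM in SPC and 115, 109 and 95.9 CPM in control libraries. Each SPC library lay above all control libraries, and the pairs gave nearly equal log2 ratios of 0.36, 0.37 and 0.41. The log2 fold change was 0.38 ± 0.09 (adjusted p = 0.140 in edgeR), and 0.38 ± 0.05 with the block (adjusted p = 0.00144). Sema4a, a semaphorin that binds neuropilin 1 on regulatory T cells in mice, had 35.7, 36.4 and 42.2 CPM in SPC and 25.3, 23.8 and 28.6 CPM in control libraries (0.56 ± 0.10, edgeR adjusted p = 0.0597, and 0.00086 with the block). Of the 9 listed Nrp1 ligands and co-receptors 5 were tested. Sema4a was the 1 called with the block, by DESeq2 and at an unadjusted p under 0.05 in edgeR. None was called without the block. Of all tested genes 7.08% were called with the block and 10.2% had an unadjusted p under 0.05. DESeq2 called 279 of 16801 genes. Nrp2, Vegfa, Plxna1 and Plxna3 had log2 fold changes from -0.18 to 0.05.

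Lrrc32, Izumo1r and Gpr83 are surface genes of regulatory T cells that passed no test. Lrrc32 (chromosome 7, 98489283 to 98502181, plus strand) encodes GARP, which holds latent TGF-beta on the cell surface. It had 17.0, 20.3 and 20.1 CPM in SPC and 19.3, 20.0 and 22.7 CPM in control libraries (log2 fold change -0.11, 95% interval -0.36 to 0.13, adjusted p = 0.815). Izumo1r encodes a folate receptor-like protein that is found on regulatory T cells and on eggs. It had 199, 169 and 186 CPM in SPC and 169, 162 and 185 CPM in control libraries (0.10, 95% interval -0.09 to 0.30, adjusted p = 0.778). Gpr83 encodes a G protein-coupled receptor of mouse regulatory T cells. It had 25.9, 19.6 and 18.4 CPM in SPC and 21.1, 18.1 and 18.3 CPM in control libraries (0.15, 95% interval -0.16 to 0.47, adjusted p = 0.798). Gpr83 without SPC library 1 had a log2 fold change of -0.01. The groups overlapped in all 3 genes. With the block their adjusted p was 0.471 for Lrrc32, 0.352 for Izumo1r and 0.351 for Gpr83. Gpr83 (14860210 to 14870789, plus strand) and Izumo1r (14885814 to 14903949, minus strand) are neighbours on chromosome 9, with 15024 bases and no annotated gene between them.

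Capg and Swap70 act on the actin cytoskeleton and are listed in regulatory T cell signatures of mice. Capg (chromosome 6, 72544391 to 72562983, plus strand) encodes a protein that caps actin filaments. It had 421, 335 and 304 CPM in SPC and 316, 263 and 274 CPM in control libraries. The groups overlapped, since SPC library 3 lay below control library 1. Its log2 fold change was 0.31 ± 0.13 (adjusted p = 0.427 in edgeR), and 0.30 ± 0.06 with the block (adjusted p = 0.0105). Without SPC library 1 the Capg log2 fold change was 0.17. Swap70 (chromosome 7, 110221711 to 110283506, plus strand) encodes an actin-binding signalling protein. It had 51.9, 52.8 and 65.4 CPM in SPC and 41.2, 43.5 and 51.9 CPM in control libraries. SPC library 1 and control library 3 were nearly level, at 51.94 and 51.91 CPM, so the lack of overlap depends on the scaling. Its log2 fold change was 0.32 ± 0.12 (adjusted p = 0.391 in edgeR), and 0.32 ± 0.06 with the block (adjusted p = 0.0121), a call that was lost without the libraries numbered 3 (0.0906). Among their paralogs, Def6, the closest relative of Swap70, had 0.05 ± 0.08, and Gsn and Flii, which are of the Capg family, had -0.15 ± 0.09 and -0.09 ± 0.06. Avil, also of that family, had 0.735 ± 0.547 CPM in SPC and 0.230 ± 0.316 CPM in control libraries (SD, n = 3 each). The log2 fold change of Avil was 1.77 ± 0.96 (edgeR adjusted p = 0.612, and 0.0546 with the block). Scin and Svil, also tested, had 0.42 ± 0.32 and -0.05 ± 0.08. None of the 6 tested paralogs was called in either edgeR fit or by DESeq2, and 0 of them had an unadjusted p under 0.05 without the block. The blocked fit without number 1 called 2 of the 6 higher, and 1109 of 12135 tested genes higher. Folr1 and Folr2, relatives of Izumo1r, had no count in any library, which allows a level of up to 0.0911 to 0.136 CPM (3 counts per library, counting error only).

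**Figure D2:**
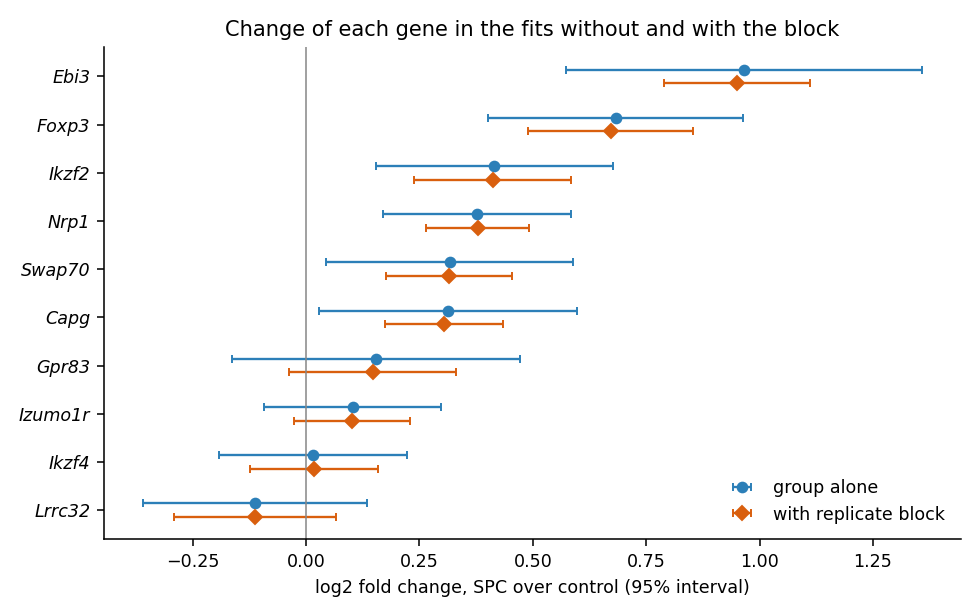
Log2 fold change of SPC over control (horizontal axis) with its 95% interval for each gene, without the block (circles) and with it (diamonds). The estimates hardly differ between the fits, and the intervals are narrower with the block, from 0.49 to 0.85 for Foxp3 against 0.40 to 0.96 without it.

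Levels were compared between genes after division by exon length, as TPM, a length-scaled share of all transcripts. The length is that of all annotated exons of a gene together. For Nrp1 it is 9785 bases against 3645 in the longest transcript, for Swap70 8090 against 4027, and for Ebi3 1154 in both. The order of genes therefore holds for this length, and no other length was tried. Capg was the most abundant of the 10 genes, at 499 ± 70.8 TPM in SPC and 404 ± 36.9 TPM in control libraries (SD, n = 3 each). Izumo1r followed at 285 ± 15.2 TPM in SPC and 267 ± 17.8 TPM in control libraries. Ebi3 was next, at 142 ± 36.1 TPM in SPC and 72.7 ± 11.2 TPM in control libraries. The next 3 genes in control libraries were Ikzf4, Nrp1 and Foxp3. Ikzf4 had 45.1 ± 1.87 TPM in SPC and 44.9 ± 4.07 TPM in control libraries, and Nrp1 had 50.7 ± 3.08 TPM in SPC and 39.2 ± 3.54 TPM in control libraries. Foxp3 had 41.2 ± 7.79 TPM in SPC and 25.7 ± 1.73 TPM in control libraries. Swap70, Lrrc32 and Gpr83 had 25.1, 14.7 and 14.9 TPM in SPC and 20.2, 15.9 and 13.5 TPM in control libraries. The Swap70 groups overlapped in TPM, with SPC library 1 at 22.2 and control library 3 at 23.0. Ikzf2 was the least abundant, at 9.61 ± 1.49 TPM in SPC and 7.23 ± 0.34 TPM in control libraries. Among neighbours in the control order, Ikzf4 and Nrp1 overlapped across control libraries, as did Lrrc32 and Gpr83, and the others did not. Per exon length the factor gene Ikzf4 thus stood above Ikzf2 in every library.

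**Figure D3:**
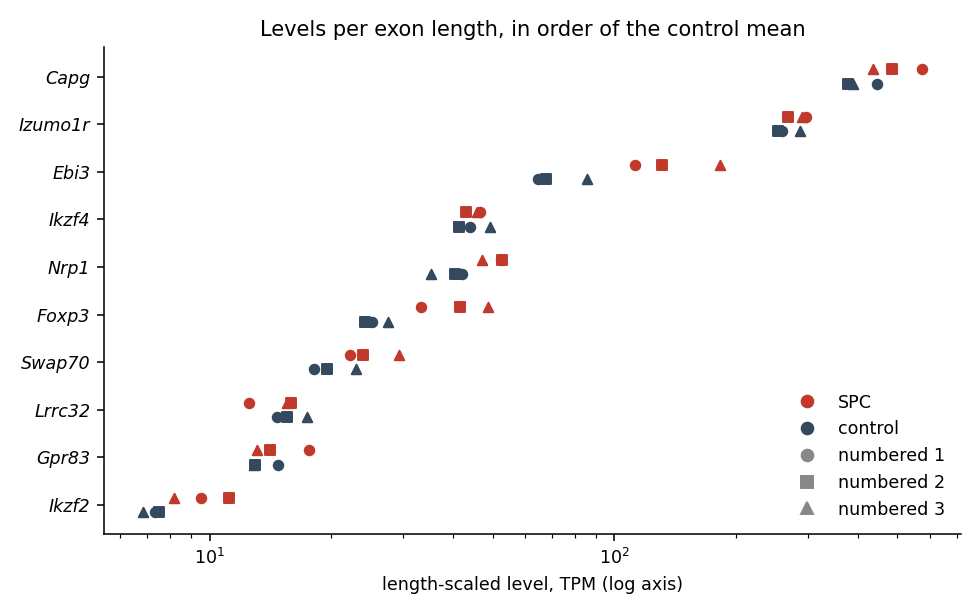
Length-scaled level in TPM (horizontal log axis) of each gene in SPC libraries (red, upper row) and control libraries (blue-grey, lower row), ordered by the control mean. Capg lies at the upper end, and Ikzf2 lies between 6.85 and 11.1 TPM across all 6 libraries.

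The genes differed in which library number gave the highest level. In 7 of the 10 the highest SPC library and the highest control library bore the same number. The share over all tested genes was not computed. Since same-numbered libraries deviated together across genes, the count is not shown to be particular to the 10. Foxp3, Ebi3 and Swap70 were highest in the libraries numbered 3, Nrp1, Capg and Gpr83 in those numbered 1, and Ikzf2 in those numbered 2. Profiles were compared by the root-mean-square difference of log2 CPM, each gene centred on its mean over the 6 libraries. Among the 9458 genes averaging 5 CPM or more, Traf1, Maff, Zbtb10, Alpk2 and Fam72a lay nearest to Foxp3, at 0.0691, 0.0745, 0.0759, 0.0873 and 0.0881. Traf1 encodes an adaptor of TNF receptors, Maff a small MAF transcription factor, Zbtb10 a zinc finger factor and Alpk2 an alpha-kinase. Traf1 had 94.3, 95.8 and 118 CPM in SPC and 61.1, 57.3 and 67.6 CPM in control libraries. Among the other genes of the set, Ebi3 ranked 56 in nearness to Foxp3 (0.173) and Swap70 ranked 122 (0.200). Nrp1 ranked 605, Ikzf2 765, Izumo1r 1795, Capg 2190, Ikzf4 3479, Gpr83 5589 and Lrrc32 5686. Same-numbered libraries deviated together, so these distances describe the libraries and carry no test.

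**Figure D4:**
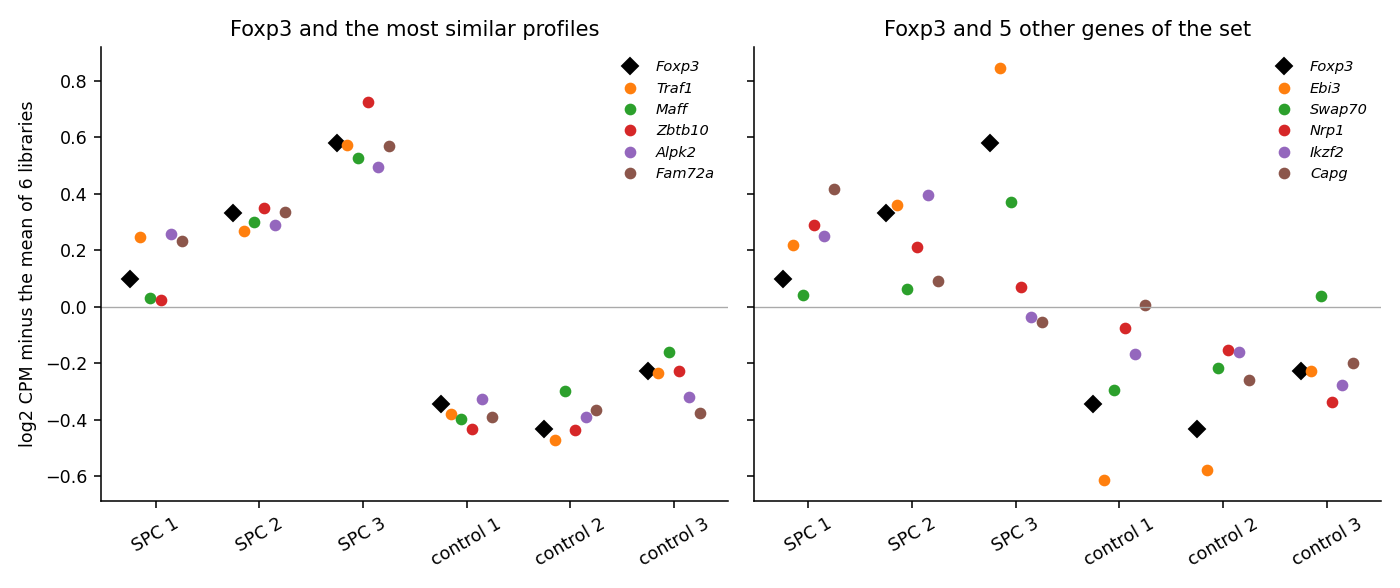
Log2 CPM of each gene minus its mean over 6 libraries (vertical axis), for SPC libraries 1 to 3 and control libraries 1 to 3. The left panel shows Foxp3 (diamonds) with the 5 nearest profiles and the right panel shows Foxp3 with 5 other genes of the set. Foxp3 and Ebi3 are highest in SPC library 3, whereas Capg and Nrp1 are highest in SPC library 1.

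The partners of EBI3 were examined next. Il12a, which encodes the p35 chain that forms IL-35 with EBI3, had 14.3, 15.6 and 15.5 CPM in SPC and 10.3, 7.30 and 5.68 CPM in control libraries. All SPC libraries lay above all control libraries, and the log2 fold change was 0.95 ± 0.19 (adjusted p = 0.0758 in edgeR), and 0.96 ± 0.15 with the block (adjusted p = 0.00373). Il27, which encodes the other chain of IL-27, had 0, 1 and 1 counts in SPC libraries and no count in control libraries. Il12rb2, a receptor chain of IL-12 and IL-35, had 4.19, 6.39 and 9.91 CPM in SPC and 10.7, 15.7 and 26.6 CPM in control libraries. It was lower in every SPC library than in any control library (-1.38 ± 0.37 on the log2 scale, edgeR adjusted p = 0.182), and -1.36 ± 0.09 with the block (adjusted p = 2.1e-05). Il27ra, Il6st and Il12rb1, the other receptor chains, had log2 fold changes of 0.14, -0.20 and -0.14 and passed neither test. Of the 6 tested genes of this list, which holds Ebi3, none was called without the block, and 2 rose and 1 fell with it. Of all tested genes 0.483% were called without the block, and 4.02% rose and 3.07% fell with it. In edgeR 3 of the 6 had an unadjusted p under 0.05, against 10.2% of all tested genes. DESeq2 called 2 genes of the list, and 279 of 16801 genes. Without control library 1 the group-only test called 1 of the 6, and 38 of 12317 tested genes. The blocked fit without number 1 called 5 of the 6, and 2112 of 12135 tested genes.

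Around LRRC32, Tgfb1, its cargo, had 333 ± 30.8 CPM in SPC and 313 ± 10.7 CPM in control libraries (SD, n = 3 each; log2 fold change 0.09 ± 0.08, edgeR adjusted p = 0.799). Tgfb3 had 0.334, 0.459 and 0.565 CPM in SPC and 0.718, 0.564 and 3.14 CPM in control libraries, so control library 3 stood apart. Tgfb3 fell in the blocked test (-1.49 ± 0.40, adjusted p = 0.0478). Furin, the protease that cleaves pro-TGF-beta, rose there by 0.18 ± 0.05 (adjusted p = 0.0433). Without number 3 the blocked fit called neither, and without number 2 no gene of this list rose. Itgav had -0.20 ± 0.15, and Itgb8, which pairs with it to release TGF-beta, was too low to be tested, at 0.271 ± 0.170 CPM in SPC and 0.285 ± 0.094 CPM in control libraries. None of the 6 tested genes was called without the block or by DESeq2, and 1 had an unadjusted p under 0.05 in edgeR, against 10.2% of all tested genes.

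Among genes that act on Foxp3 transcription, 7 were called with the block, in both directions. Of 30 tested, which include TGF-beta receptors, SMADs, the IL-2 receptor, STAT5 and NFAT, none was called without the block (6 had an unadjusted p under 0.05 in edgeR, and DESeq2 called 2), and 3 rose and 4 fell with it, with a median log2 fold change of -0.08. The shares of all tested genes were 10.2% with an unadjusted p under 0.05, and 4.02% that rose and 3.07% that fell with the block. DESeq2 called 279 of 16801 genes. Without number 1, 2 or 3 the blocked fit called 18, 4 and 5 of the 30. Over all tested genes those fits called 2112 of 12135, 699 of 12223 and 563 of 12289. Without SPC library 1 the group-only test called 1 of the 30, and 66 of 12308 genes. Bach2, a repressor that limits effector differentiation, had 183 ± 17.7 CPM in SPC and 137 ± 11.9 CPM in control libraries and rose in the blocked test (0.42 ± 0.06, adjusted p = 0.00283). Tgfbr1, which encodes a TGF-beta receptor kinase, rose by 0.29 ± 0.05 (adjusted p = 0.00656 with the block). Ets1, which binds a Foxp3 enhancer in mice, had 407 ± 31.5 CPM in SPC and 542 ± 53.9 CPM in control libraries and fell in the blocked test (-0.41 ± 0.05, adjusted p = 0.00135). Stat5a, which transmits the IL-2 signal, rose with the block (0.28 ± 0.05, adjusted p = 0.00849). Il2ra, the high-affinity IL-2 receptor chain, Smad3, a mediator of TGF-beta signals, and Nr4a3, a nuclear receptor, fell there by 0.24 ± 0.06, 0.25 ± 0.06 and 0.32 ± 0.05 on the log2 scale. Stat5a, Il2ra, Smad3 and Nr4a3 were chosen after their values were seen.

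Among 15 tested partners of FOXP3 protein, Hdac9 was called without the block, and 3 rose and 1 fell with it (median log2 fold change -0.02). The shares over all tested genes were 0.327% higher without the block, and 4.02% higher and 3.07% lower with it. In edgeR 4 of the 15 had an unadjusted p under 0.05, against 10.2% of all tested genes. DESeq2 called 1 of the 15, and 279 of 16801 genes. Without number 1, 2 or 3 the blocked fit called 6, 3 and 3 of the 15. Over all tested genes those fits called 2112 of 12135, 699 of 12223 and 563 of 12289. Hdac9, a histone deacetylase gene known to limit mouse regulatory T cell function, had 1.49, 2.03 and 2.43 CPM in SPC and 0.684, 0.564 and 0.591 CPM in control libraries (1.67 ± 0.28, edgeR adjusted p = 0.0489). With total-count scaling, or without SPC library 2 or 3 or any 1 of the control libraries, the group-only test called no gene of this list, so the call of Hdac9 was lost. Hdac7 and Foxp1, which encodes a forkhead relative of FOXP3, rose with the block by 0.30 ± 0.05 and 0.25 ± 0.05 (adjusted p = 0.00302 and 0.0145), and Hif1a, the hypoxia-response factor, fell (-0.48 ± 0.05, adjusted p = 0.00056), chosen after its value was seen.

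Of the surface and effector genes of regulatory T cells 23 were tested. None rose and 3 fell without the block, and 3 rose and 10 fell with it (median log2 fold change -0.06). The shares of all tested genes that fell were 0.155% without the block and 3.07% with it, and 4.02% rose with it. In edgeR 11 of the 23 had an unadjusted p under 0.05, against 10.2% of all tested genes. DESeq2 called 2 higher and 5 lower of 25 listed genes with any count, and 179 higher and 100 lower of 16801 genes. The group-only test called none of the 23 without SPC library 2 or without control library 2. It called 1 lower without SPC library 3, control library 1 or control library 3, and 1 higher and 1 lower without SPC library 1. The 3 called with all libraries were Gzmb, Ccr8 and Tigit. Tigit, a co-inhibitory receptor gene, had 4.74, 4.10 and 5.22 CPM in SPC and 7.94, 9.02 and 11.05 CPM in control libraries. Ctla4, which encodes the inhibitory receptor that competes with CD28 and was chosen after its values were seen, had 125, 170.3 and 262 CPM in SPC and 286, 396 and 612 CPM in control libraries. All SPC values of Ctla4 were below all control values, and the level was lowest in the libraries numbered 1 and highest in those numbered 3 in both groups. Its log2 fold change was -1.22 ± 0.31 (adjusted p = 0.168 in edgeR), and -1.21 ± 0.05 with the block (adjusted p = 5.0e-07). Il10, also chosen so, had 1.67, 1.23 and 1.39 CPM in SPC and 3.04, 3.25 and 3.95 CPM in control libraries. Its log2 fold change was -1.24 ± 0.21 (edgeR adjusted p = 0.0514, and 0.00389 with the block). Lag3 and Tnfrsf9, chosen in the same way, fell with the block (-0.75 ± 0.08 and -0.65 ± 0.07, adjusted p = 0.00029 and 0.00046). Tnfrsf4 and Tnfrsf18, which encode OX40 and GITR, fell there too (-0.29 ± 0.06 for each, adjusted p = 0.0123 and 0.0235). The 3 that rose with the block were Cd83 (0.49 ± 0.06, adjusted p = 0.00068), Nt5e, the ecto-enzyme CD73 (0.45 ± 0.09, adjusted p = 0.0106), and Fgl2 (0.85 ± 0.22, adjusted p = 0.0414). Icos, Itgae, Entpd1 and Tgfb1 had log2 fold changes from 0.05 to 0.14.

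Of 8 tested genes that are low in regulatory compared with conventional T cells, none was called without the block and 2 fell with it (median log2 fold change -0.06), where 3.07% of all tested genes fell. In edgeR 3 of the 8 had an unadjusted p under 0.05, against 10.2% of all tested genes. DESeq2 called 2 of the 8, and 279 of 16801 genes. Without SPC library 3 the group-only test called 1 of the 8, and 35 of 12408 tested genes. Satb1, a chromatin organiser that FOXP3 represses, had 73.8, 86.4 and 112.5 CPM in SPC and 142, 158 and 166 CPM in control libraries. The groups did not overlap (-0.77 ± 0.14, edgeR adjusted p = 0.0597, and 0.00014 with the block). Il7r, the IL-7 receptor chain gene, had 9.99, 11.8 and 13.9 CPM in SPC and 16.1, 19.5 and 21.5 CPM in control libraries (-0.68 ± 0.15, edgeR adjusted p = 0.104, and 0.00088 with the block). Dapl1 had 1.70 ± 0.34 CPM in SPC and 2.48 ± 0.20 CPM in control libraries and passed neither test (-0.55 ± 0.22, edgeR adjusted p = 0.423). Il2 and Pde3b, both repressed by FOXP3, had 0.20 ± 0.24 and 0.00 ± 0.13.

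**Figure D5:**
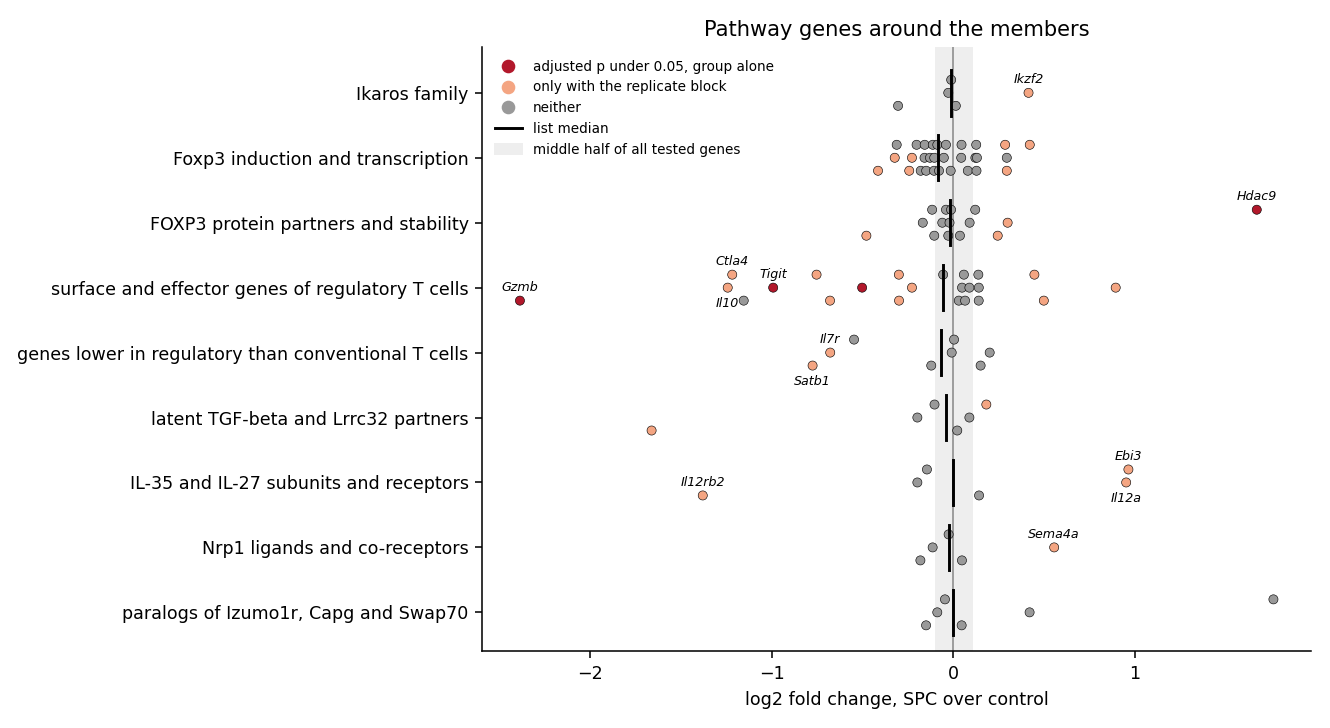
Log2 fold change of SPC over control (horizontal axis) for each tested gene of 9 lists (rows), red where the group-only test called it, orange where only the blocked test did and grey otherwise, with the list median as a black bar. The interquartile range of all tested genes is shaded. Gzmb at -2.39 and Hdac9 at 1.67 mark the ends of the called genes.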

How the data were processed

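Gene-level read counts of 6 libraries were analysed as deposited by the authors, 1 file per library. The submitters' processing notes name TopHat and mm10, and the kit named in the labels' protocols marks strand. How reads were counted, with which annotation and strand setting, is not given in the sources used here. The groups and numbers come from the titles.

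Counts were tested with edgeR 4.0.16 (R 4.3.3) by the quasi-likelihood F test with robust dispersions, TMM scaling and filterByExpr (minimum count 10, minimum total 15), with group as the single term and Benjamini-Hochberg adjustment over 12226 genes. Calls are at an adjusted p under 0.05. The SE is the log2 fold change over the square root of F. Alternatives were DESeq2 1.42.0, other scalings, no filter, the replicate block and left-out libraries. An exact permutation test of 3 libraries against 3 has 0.1 as its smallest two-sided p, and was not used.

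Each library was set against the mean of its group. Across genes these deviations had correlations of 0.413, 0.208 and 0.508 between the SPC and control library of numbers 1, 2 and 3, and pairing by number needed more than 0.1, so blocked values stand beside results that they change. Within groups, chi-square per degree of freedom was 4.82 to 34.8, so no pair of libraries agreed within counting noise.

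Coordinates and exon lengths come from GENCODE M21 (98.48% of symbols matched), and length-scaled levels are over the matched genes. The genes and lists were chosen with earlier results of these data known. Named are the 10 genes, up to 3 genes with the smallest p in each list, partners in lists of up to 10 genes, and the 5 profiles nearest to Foxp3. Other named genes were chosen after their values were seen.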

Additional observations from a re-analysis of the deposited data

How the results depend on the processing

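Foxp3, Ebi3, Nrp1, Ikzf2, Capg, Swap70 and Izumo1r stayed above 0 in log2 fold change, and Lrrc32 below 0, in all 14 alternatives. Ikzf4 turned to -0.036 without SPC replicate 1, and its values without 1 library lay between -0.048 and 0.094. In the replicate block without the libraries numbered 1 it was -0.038. Gpr83 turned to -0.015 without SPC replicate 1, in a range from -0.015 to 0.25. The cause was not tested.

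The number of the 10 genes called was 0, and it was 2 with no filter on low counts (Ebi3 and Foxp3), 3 in DESeq2 and 6 with the replicate block. It lay between 0 and 1 when a library was left out, and the blocked fit without number 1, 2 or 3 gave 6, 5 and 5. The count over all genes was 59, and it was 147 with no filter, 279 in DESeq2 and 866 with the replicate block. It lay between 6 and 66 when a library was left out, and the blocked fit without number 1, 2 or 3 gave 2112, 699 and 563. Foxp3 had 0.68 with no filter (adjusted p = 0.0118), 0.68 in DESeq2 (8.1e-05) and 0.67 with the replicate block. It lay between 0.55 and 0.80 when a library was left out (adjusted p between 0.0360 and 0.310), and the blocked fit without number 1, 2 or 3 gave 0.79, 0.64 and 0.60. DESeq2 size factors and total counts in edgeR changed no call of the 10 genes.

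Depth limits genes with few counts, among those named Hdac9 (13 to 56 counts per library), Tgfb3 (11 to 69), Avil (0 to 30), Itgb8 (2 to 11) and Adgre1 (4 to 21). If counting ignored strand, reads of Foxp3 and Ebi3 cannot be parted from those of genes on the other strand.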
